A study of Zea mays with 12 samples.

Results

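Glutathione transferases join the tripeptide glutathione to electrophilic compounds, which makes them more soluble and less reactive. In plants the conjugates are carried into the vacuole by ABC transporters of the MRP family, and maize enzymes of this family are known for detoxifying herbicides and for responding to herbicide safeners. The maize gene bz2 encodes a family member that is needed to deposit anthocyanin in the vacuole. The genes described here are 6 members of the family, gst5, gst11, gst12, gst13, gst28 and GST38, which were read by 7 probe sets of the Affymetrix maize array because gst13 has 2. They were taken by gene symbol or synonym from the platform's probe annotation, out of 36 probe sets for 32 glutathione transferase genes and out of 17621 probe sets, with 1108 named genes, in all.

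The samples were immature ears, the young female inflorescences of maize, from the reciprocal hybrids B73xMo17 and Mo17xB73 and from their inbred parents B73 and Mo17, all grown in the field. Each genotype had 3 biological replicates with an array each, 12 in total. A replicate was a pool of 6 ears of 3.7 to 5.4 mm without husks and silks, and ears of every genotype were taken on each of 3 days in a row. By maize convention the seed parent of a cross is named first. No treatment or transgene was involved, and the findings hold for this pair of inbreds and their crosses.

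Of 13 ear and inflorescence marker probe sets 12 were above the filter on dim signals, as were 8 of 11 for photosynthesis in leaf and husk, 3 of 12 for endosperm and 0 of 4 for pollen and anther. Among all probe sets 11126 of 17621 were above it, and these counts are no measure of tissue content. Signals are MAS5 intensities on a linear scale after each array was scaled to a common median, since the array medians as deposited ran from 123 to 231. The dimmest array was Mo17 replicate 1 and the brightest B73 replicate 2. B73 replicate 2 also stood apart at the dark end, with a 1st percentile of 3.90, against 0.455 to 0.647 on the other 11 arrays. Signals under a floor of 12.2 were set to it, and no probe set's level is set against another's, because probes differ in brightness.

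The genes were chosen with the parental difference and the distance from the midparent already known in these arrays, gst13 for its parental difference and gst5 for its distance from the midparent. Both quantities are therefore given for the 7 probe sets as descriptions, with a standard error (SE) from the fit across all probe sets and with no p-value. The contrast between the reciprocal hybrids was not used in the choice and was tested. Whole ears were ground, so more RNA per cell and more cells of an expressing type cannot be told apart. Likewise, a difference in transcript level between the inbreds and a difference in how well the probes match the B73 and Mo17 sequences cannot be told apart in these values.

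In all 7 probe sets the B73 and Mo17 arrays did not overlap, 4 with B73 above Mo17 and 3 with B73 below. Over the 11126 probe sets tested, B73 lay above Mo17 on all arrays in 22.4% and below in 26.9%, and nothing is read from the members' count because the choice fixed it. Signals of gst11, gst12 and gst28 were higher in B73, those of gst5 and GST38 were higher in Mo17, and the probe sets of gst13 pointed opposite ways. The median B73 minus Mo17 difference over the 7 was 1.11 on the log2 scale, with a range of -4.16 to 2.50, beside -0.05 over all probe sets tested. Nothing is read from this median either, since the choice was made with the difference known and gst13 enters it with both of its probe sets.

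**Figure D1:**
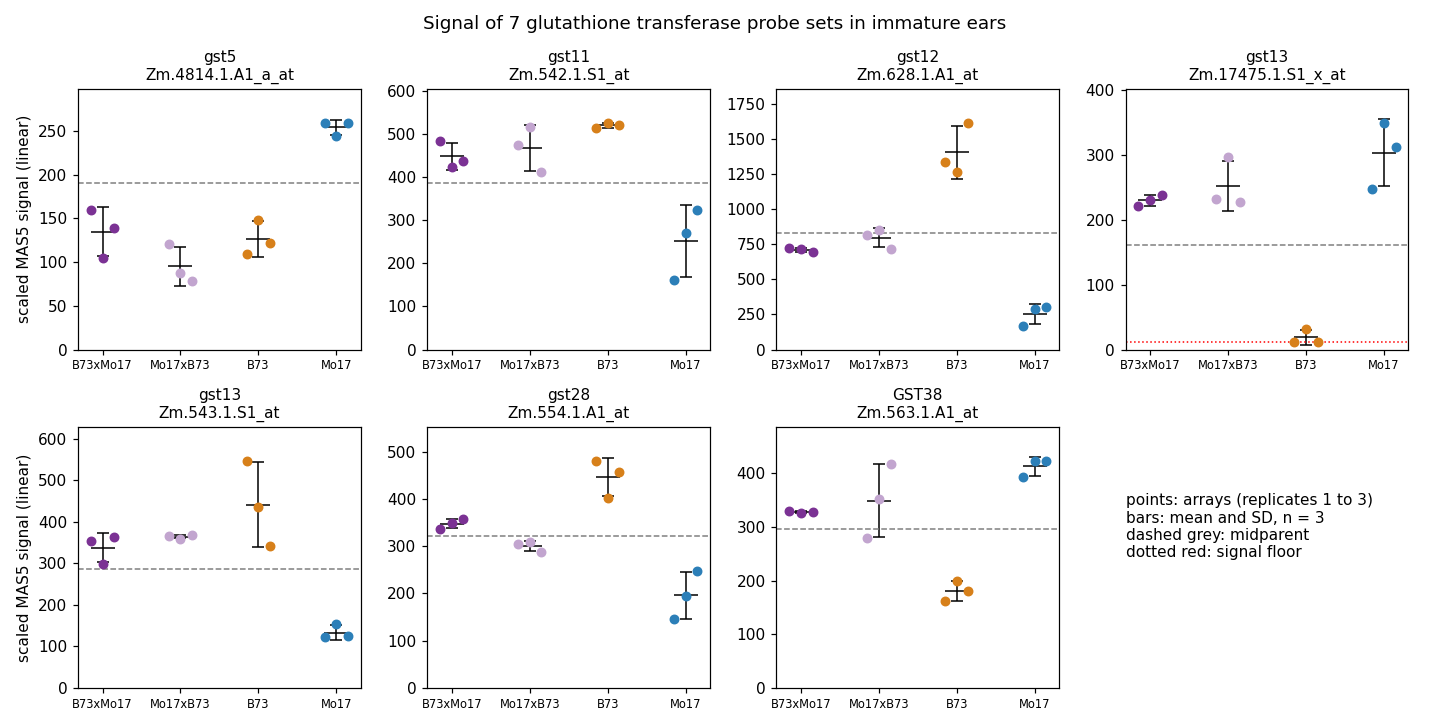
Scaled MAS5 signal (linear, vertical axis from 0) of each probe set on every array, by genotype; points are replicates 1 to 3, bars the mean and SD (n = 3), the dashed line the midparent and the dotted line the signal floor of 12.2. The 3 B73 arrays and the 3 Mo17 arrays are apart in every panel, and the hybrids lie near or below B73 in the gst5 panel.

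gst12 had the widest parental gap of the genes read higher in B73. Its scaled signal was 721, 718 and 695 in B73xMo17, 817, 854 and 720 in Mo17xB73, 1333, 1263 and 1616 in B73, and 170, 292 and 300.3 in Mo17. All 6 hybrid arrays lay below every B73 array and above every Mo17 array, and the hybrids overlapped one another. B73 averaged 1404 ± 187 and Mo17 254 ± 73 (SD, n = 3 each), a log2 difference of 2.50 ± 0.18 (SE) or 5.68-fold. Mo17 replicate 1 was the lowest of its genotype, and without it the difference was 2.24.

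gst11 lies beside gst12 in RefSeq's annotation of Zm-B73-REFERENCE-NAM-5.0, with 0 protein-coding genes between them, and it pointed the same way. Its signal was 484, 425 and 438 in B73xMo17, 476, 516 and 412 in Mo17xB73, 514, 527 and 520.3 in B73, and 161, 271 and 323 in Mo17. Every hybrid array was above every Mo17 array. One Mo17xB73 array reached into the narrow B73 range, and the B73xMo17 arrays stayed below it. Means were 520.4 ± 6.37 in B73 and 252 ± 83.0 in Mo17 (SD, n = 3 each), a difference of 1.11 ± 0.19 on the log2 scale or 2.16-fold. The spread in Mo17 came mostly from replicate 1, without which the difference was 0.81.

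gst28 was the gene in which all 4 genotypes were separated after scaling. The signal was 337, 349.7 and 357 in B73xMo17, 305, 309.7 and 288 in Mo17xB73, 481, 402 and 457 in B73, and 147, 195 and 247 in Mo17. The order, without overlap between neighbours, was Mo17, Mo17xB73, B73xMo17 and B73. As deposited the reciprocal hybrids overlapped, with 263.2, 400.4 and 415.3 in B73xMo17 and 266.8, 318.2 and 280.5 in Mo17xB73. B73 averaged 447 ± 40.7 and Mo17 196 ± 50.3 (SD, n = 3 each), a log2 difference of 1.22 ± 0.15 or 2.32-fold. Mo17 replicate 1 was again the lowest Mo17 array, and the difference without it was 1.02.

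GST38 was read higher in Mo17. Its signal was 331, 326 and 328 in B73xMo17, 279, 352 and 417 in Mo17xB73, 162, 199 and 181 in B73, and 393, 423 and 423 in Mo17. All hybrid arrays exceeded all B73 arrays, and 1 Mo17xB73 array fell within the Mo17 range. The B73xMo17 arrays spanned a few units, whereas those of Mo17xB73 spread over most of the gap between the parents. B73 averaged 181 ± 18.7 and Mo17 413 ± 17.7 (SD, n = 3 each), a log2 difference of -1.20 ± 0.13, with Mo17 2.29-fold above B73.

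gst5 was also read higher in Mo17, and its hybrids lay with the lower parent. Its signal was 160, 105 and 139 in B73xMo17, 121, 87.1 and 78.6 in Mo17xB73, 109, 149 and 122 in B73, and 260, 245 and 259 in Mo17. The 3 Mo17 arrays stood alone at the top, and the 6 hybrid arrays overlapped those of B73. B73 averaged 127 ± 20.2 and Mo17 254.5 ± 8.46 (SD, n = 3 each), a log2 difference of -1.02 ± 0.19, with Mo17 2.03-fold above B73.

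gst13 gave contrary readings from its 2 probe sets, which are told apart here by the endings of their array identifiers, S1_x_at and S1_at. On S1_x_at the signal was 222, 230.1 and 238 in B73xMo17, 232, 297 and 228 in Mo17xB73, and 248, 349.6 and 313 in Mo17. B73 was at the floor on replicates 1 and 3, with scaled signals of 9.78 and 10.3 before flooring, and at 31.8 on replicate 2. The hybrids were far above B73 on every array, and Mo17xB73 overlapped Mo17 while B73xMo17 stayed below it. The B73 minus Mo17 difference was -4.16 ± 0.29 on the log2 scale, with floored means of 18.8 ± 11.3 in B73 and 303 ± 51.7 in Mo17 (SD, n = 3 each). B73 replicate 2, the array that stood apart at the dark end, was the single B73 array above the floor. Without it, and with the floor taken again over the arrays left, the difference was -4.65. Mo17 was then at least 24.6-fold higher, as its mean log2 signal against the floor of 12.2. Its size rests on how dim signals are treated: it was -1.89 with a floor at the 40th percentile and -3.31 on the log2(signal + 16) scale.

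On S1_at the order of the inbreds was the other way round. The signal was 352, 298 and 362 in B73xMo17, 366, 359 and 367 in Mo17xB73, 546, 436 and 341 in B73, and 121, 154 and 124 in Mo17. The Mo17 arrays were below all others, and both hybrids overlapped B73. B73 averaged 441 ± 103 and Mo17 133 ± 18.0 (SD, n = 3 each), a log2 difference of 1.71 ± 0.15 or 3.28-fold. The suffix _x_at marks a probe set with probes that can also match other sequences, and _at without it marks one meant for a single sequence. What set the probe sets apart was not tested, and no direction is given for the gene gst13 as a whole.

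The midparent is the mean of the parental signals on the linear scale, the level that equal contributions from both parents would give. The hybrid mean was above it in 5 probe sets and below it in 2, and lay between the parents in 6. The median hybrids minus midparent difference was 0.18 on the log2 scale over the 7 (range -0.77 to 0.60), beside -0.01 over all probe sets tested. All 6 hybrid arrays were above the midparent in 3 members (gst11 and both probe sets of gst13) and below it in 1 (gst5), shares that are 8.84% and 12.3% over all probe sets tested. Across these, 0.8% were called higher and 0.494% lower than the midparent at an adjusted p under 0.05 (0.261% and 0.521% as deposited). Nothing is read from the members' counts or from their median, because the genes were chosen with this distance known.

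For gst5 the hybrids averaged 115 ± 31.2 (SD, n = 6), against a midparent of 191. The log2 difference was -0.77 ± 0.14 over both crosses, -0.52 ± 0.16 in B73xMo17 and -1.02 ± 0.16 in Mo17xB73. With the midparent at 0, the higher parent at 1 and the lower parent at -1, the hybrids were at -1.18, B73xMo17 at -0.87 and Mo17xB73 at -1.49. The hybrid mean was thus below that of the lower parent, B73, while their arrays overlapped. Over the 19 alternative settings the difference stayed between -0.86 and -0.68, and as deposited the position was -1.92, further below B73. The gene was chosen for this distance in these arrays, so nothing is read from how steady it was.

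In the gene pair gst11 and gst12, the place of the hybrids depended on the scaling and on how the midparent was taken. For gst11 the hybrids averaged 458.5 ± 40.1 (SD, n = 6), against a midparent of 386, a log2 difference of 0.26 ± 0.14, and their position was 0.54 (0.47 in B73xMo17 and 0.61 in Mo17xB73). For gst12 they averaged 754 ± 65.0 (SD, n = 6), against a midparent of 829, a log2 difference of -0.13 ± 0.14, and their position was -0.13 (-0.20 in B73xMo17 and -0.06 in Mo17xB73). The gst12 hybrids were thus within 1 SE of the midparent, with 1 of 6 arrays above it. With the midparent as the mean of the parental log2 signals, which lies lower where the parents are far apart, the differences were 0.37 for gst11 and 0.36 for gst12. As deposited, gst11 was at 0.11 (position 0.12) and gst12 at -0.33 (position -0.29). Leaving out Mo17 replicate 1 gave 0.16 for gst11, and leaving out B73 replicate 3 gave -0.04 for gst12. No test of the difference between these genes was made.

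Hybrids of gst28 averaged 325 ± 27.5 (SD, n = 6), against a midparent of 321, a log2 difference of 0.02 ± 0.11. The crosses straddled the midparent, with B73xMo17 at 0.13 ± 0.13 above it, Mo17xB73 at -0.08 ± 0.13, and all 3 arrays of each on their own side. As deposited, the mean difference was -0.14, so no direction is given. GST38 hybrids averaged 339 ± 45.0 (SD, n = 6), against a midparent of 297, a difference of 0.18 ± 0.09 at position 0.36, with 5 of 6 arrays above. Its crosses were at 0.27 in B73xMo17 and 0.45 in Mo17xB73.

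Although the gst13 probe sets disagreed on which inbred was higher, in both the hybrids lay toward the higher parent. On S1_x_at they averaged 241 ± 27.7 (SD, n = 6), against a midparent of 161, a log2 difference of 0.60 ± 0.24 at position 0.56 (0.49 in B73xMo17 and 0.64 in Mo17xB73). On S1_at they averaged 351 ± 26.3 (SD, n = 6), against a midparent of 287, a difference of 0.31 ± 0.11 at position 0.41 (0.33 in B73xMo17 and 0.50 in Mo17xB73). All 12 of these hybrid readings were above their midparent. The size of the distance varied with the treatment of the data: on S1_x_at the difference was 1.76 against the log2 midparent and 0.33 once the floor was raised to the 40th percentile. On S1_at it was 0.13 as deposited (position 0.15) and 0.55 against the log2 midparent. Leaving out B73 replicate 1 moved the S1_at position to 0.70, and leaving out B73 replicate 3 moved it to 0.21, with a difference of 0.17. They come from the same 6 arrays and are not independent.

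The inbred arrays did not overlap in any member, so leaving out B73 replicate 2, the array apart at the dark end, could hardly turn a parental direction. Values without this array are given for their size, and nothing is read from their signs. Without it the B73 minus Mo17 difference was 1.10 for gst11, 2.58 for gst12, 1.71 for gst13 on S1_at, 1.29 for gst28, -1.27 for GST38 and -1.14 for gst5. Against the midparent, the hybrids were then at 0.27 for gst11, -0.19 for gst12, 0.62 and 0.31 for gst13 on S1_x_at and S1_at, 0.20 for GST38 and -0.73 for gst5. For gst28, which lay at the midparent, the value was -0.03.

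**Figure D2:**
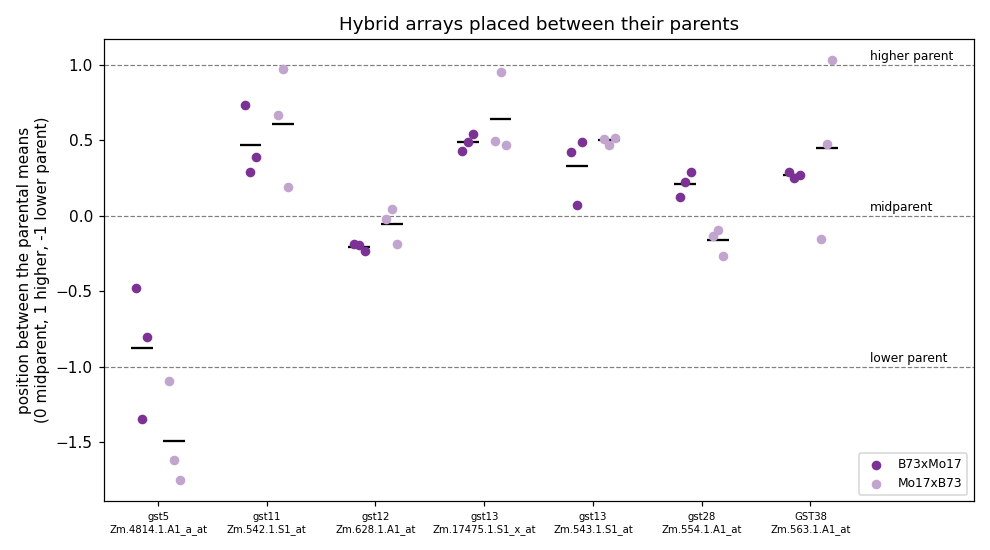
Position of each hybrid array between its parents (vertical axis, no unit; 0 is the midparent, 1 the mean of the higher parent and -1 that of the lower parent), by probe set; points are arrays, short lines the mean of each cross. The gst5 arrays run from -0.479 down past the lower parent, with means of -0.87 in B73xMo17 and -1.49 in Mo17xB73, and the gst12 means are just under 0.

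The reciprocal hybrids carry the same nuclear alleles and differ in which inbred was the seed parent. No member was called different between them by limma with Benjamini-Hochberg adjustment over 11126 probe sets: all 7 had an adjusted p of 1, and 1 had an unadjusted p under 0.05. The background was 0% called (0 probe sets, 288 at an unadjusted p under 0.05, and 6 called in the values as deposited). gst5 had the largest B73xMo17 minus Mo17xB73 difference of the members, 0.50 ± 0.19 on the log2 scale (95% interval 0.10 to 0.90, unadjusted p = 0.0188 and adjusted p = 1 by limma). Its means were 135 ± 27.9 in B73xMo17 and 95.5 ± 22.3 in Mo17xB73 (SD, n = 3 each), and the arrays overlapped.

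gst28 was the single member whose reciprocal arrays did not overlap after scaling, a separation seen in 9.18% of all probe sets tested. As deposited its reciprocal arrays overlapped. After scaling gst28 averaged 348 ± 10.1 in B73xMo17 and 301 ± 11.2 in Mo17xB73 (SD, n = 3 each), a log2 difference of 0.21 ± 0.15 (95% interval -0.11 to 0.53, adjusted p = 1 by limma). For gst12 the difference was -0.16 ± 0.18 (interval -0.54 to 0.22). For gst13 it was -0.12 ± 0.29 (-0.75 to 0.51) on S1_x_at and -0.11 ± 0.15 (-0.44 to 0.21) on S1_at. gst11 gave -0.06 ± 0.19 (-0.46 to 0.35) and GST38 -0.07 ± 0.13 (-0.34 to 0.21), and both changed sign in the values as deposited. The SE of each interval, that of gst5 included, rests on the spread within all genotypes, the inbreds among them. For gst28 the SD was 50.3 in Mo17 and 40.7 in B73, larger than in either hybrid. For gst13 on S1_x_at the partly floored B73 arrays, at 18.8 ± 11.3 (SD), entered the SE. The intervals are therefore no measure of the spread of the hybrids alone. They hold values of either sign in all members but gst5, whose interval is not adjusted for the number of probe sets. With the hybrid arrays fitted alone, 0 members were called.

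Of the 29 other glutathione transferase probe sets (26 genes), 9 passed the filter on dim signals, and 20 did not. Of the 9, 3 were called higher and 2 lower in B73 than in Mo17, with a median difference of 0.09, beside backgrounds of 19.5% higher and 21.5% lower. As deposited, 4 were higher and 0 lower, beside 20.5% and 5.07%. In those unscaled values the tested probe sets read higher in B73 by a median of 0.28 on the log2 scale. What changed the counts was not tested. saf1, a safener-induced gene also known as In2-1, was higher in B73, where it averaged 121 ± 42.4 (SD, n = 3). All 3 Mo17 arrays were at the floor, so B73 was at least 9.50-fold higher (limma adjusted p = 7.92e-08). Flooring left the Mo17 arrays with no spread, so this p-value holds for the floored values only. GST3 averaged 913 ± 47.0 in B73 and 480.1 ± 14.1 in Mo17 (SD, n = 3 each), 0.93 ± 0.10 higher on the log2 scale (limma adjusted p = 6.19e-06).

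gst16 was 0.79 ± 0.20 higher in B73 (limma adjusted p = 0.00552). The 2 that were lower in B73, gst17 at -0.40 ± 0.10 and gst41 at -0.31 ± 0.09, did not pass as deposited (limma adjusted p = 0.866 and 0.951), and the count of those lower was 1 without B73 replicate 2 or without Mo17 replicate 2. Against the midparent 0 of the 9 passed by limma, beside 0.8% higher and 0.494% lower over all probe sets tested. An unadjusted p under 0.05 was seen in 0 of the 9, beside 1447 of 11126. With 9 probe sets, nothing is read from these counts. These 9 hybrid differences had a median of -0.01, the same as over all probe sets tested.

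**Figure D3:**
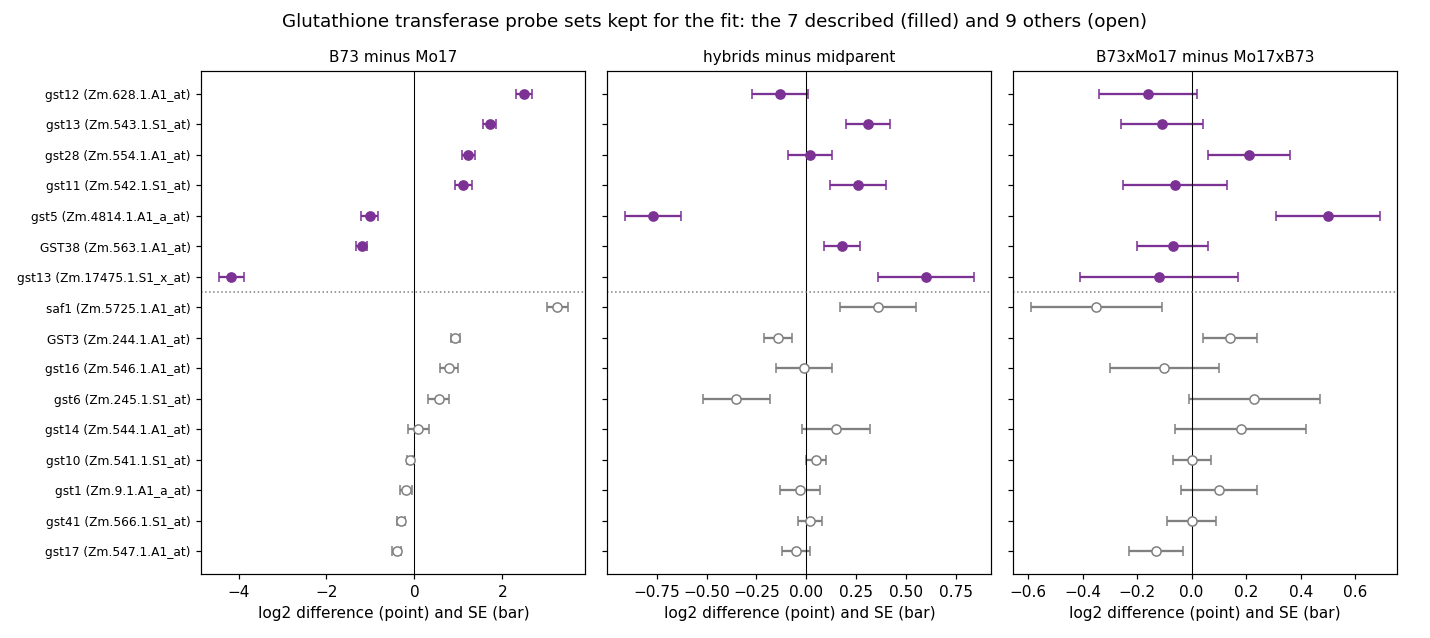
Log2 differences (points) with SE (bars) of the 16 glutathione transferase probe sets kept for the fit, in 3 contrasts: B73 minus Mo17, hybrids minus midparent, and B73xMo17 minus Mo17xB73; filled points are the 7 described and open points the 9 others. The parental differences of the 7 run from -4.16 to 2.50, and in the midparent panel gst5 is at -0.77; the saf1 value in the first panel is set by the floor in Mo17.

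Genes around the family were counted from lists chosen by function. Together, 5 of 24 kept probe sets were called higher in B73 and 3 lower, beside 19.5% and 21.5% over all probe sets tested. Of 6 kept probe sets for glutathione synthesis and reduction, a list that also took in the glyoxalase gene glx1, 1 was higher in B73 and 0 lower. The higher was gor1, a glutathione reductase, by 1.64 ± 0.11 on the log2 scale (limma adjusted p = 2.09e-08). gsh1 and gsh2, the enzymes that build glutathione, gave 0.11 (limma adjusted p = 0.252) and -0.12 (0.397). The kept glx1 probe sets gave 0.07, 0.03 and -0.10 (limma adjusted p = 0.536, 0.844 and 0.427). Of 6 for sulfur assimilation and cysteine, 1 was higher (sat3, a serine acetyltransferase, 0.56 ± 0.08, limma adjusted p = 5.4e-05) and 2 lower. The lower calls came from 2 of 3 probe sets of sir, sulfite reductase, at -1.19 ± 0.19 and -1.50 ± 0.31 (limma adjusted p = 0.000198 and 0.00146), while the remaining sir probe set read 0.05 (0.799). Of 2 for export of conjugates, 1 was higher in B73 and 0 lower: the ABC transporter gene MRP2, by 2.19 ± 0.14 (limma adjusted p = 2.04e-08). Another MRP2 probe set was below the filter.

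Of 10 probe sets for handling of reactive oxygen, 2 were higher and 1 lower in B73. The catalase gene CAT3 was higher by 2.28 ± 0.21 and aox1, an alternative oxidase, by 1.42 ± 0.19 (limma adjusted p = 7.32e-07 and 3.67e-05). Another aox1 probe set was below the filter. One probe set of cat1 was lower at -0.40 ± 0.12 (limma adjusted p = 0.0155), a call that was lost as deposited (adjusted p = 0.84), and another read -0.04 (0.851). Against the midparent, 1 of the 24 kept probe sets of these lists passed, beside 0.8% higher and 0.494% lower over all probe sets tested. It was aprl1, of the sulfur list, lower in the hybrids at -0.77 (limma adjusted p = 0.011), and 0 passed with no filter. The list of other detoxification enzymes held 4 probe sets, for hpl1, d3, iaglu and czog1. They were found by symbols of cytochrome P450 or glucosyltransferase genes and do not stand for detoxification enzymes as a whole. All 4, and all 5 probe sets for the anthocyanin pathway, were below the filter and were not tested.

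Position on the chromosomes was not used in the choice. By RefSeq, 4 of the 6 genes lie on 1 chromosome, and the other family genes were not counted in this way. With 0 protein-coding genes between, the nearest family member on the array was gst9 for gst13, gst7 for gst28 and gst30 for GST38, and gst11 and gst12 are each other's neighbour. gst5 had no such neighbour, since 2907 protein-coding genes separate it from gst14, the nearest family member on the array. The neighbours gst9, gst7 and gst30 were below the filter, so they could not be followed across genotypes in the same test.

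For each member, the probe sets with the most alike pattern were ranked by Pearson's r of log2 signal over the 12 arrays. Such values are descriptions, because the arrays form 4 genotypes and the parental difference dominates them. The named genes closest to gst12 were ohp1 (0.984) and rpl30 (0.979), and rpl30 (0.970) and IDDveg9 (0.955) were closest to gst28. For gst11 they were tub5 (0.945) and IDDveg9 (0.942), and for GST38 fie2 (0.954) and tubg1 (0.952). gst5 had CPN60I (0.926) and PIP1-3 (0.907), the lowest of these values.

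The probe sets of gst13 had no named gene in common here. GAPC (0.990) and cpi2 (0.988) were closest to S1_x_at, and both probe sets of CesA-4 (0.970 and 0.966) to S1_at. The closest of any name was an unnamed probe set for every member, at r of 0.971 to 0.994.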

How the data were processed

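The deposited table held intensities: the authors deposited linear MAS5 signals, per the submitters' processing notes, for 17734 probe sets, 113 of them controls, which were left out. Neither its version nor its scaling target is given in the sources used here. No array repeated another; signals of arrays of the same genotype correlated at 0.977 to 0.992. The number of arrays limits the precision.

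A probe set was kept if 3 or more of the 12 arrays had it above their own 40th percentile (11126 kept, 6495 not). Arrays were scaled to a common median over those kept, floored at the median over arrays of the 20th percentile (12.2), and taken to log2. The 12 arrays entered a single limma fit (version 3.58.1, R 4.3.3; genotype means, moderated variances with a trend, 8 residual degrees of freedom), with Benjamini-Hochberg adjustment and calls under 0.05; it was tested on simulated data. The midparent's SE followed from the delta method. The alternatives were no scaling, quantile normalization, no filter, other floors, a replicate block, robust variances, hybrids or inbreds alone, the log2 midparent and leaving out each array. Replicate numbers share no stated origin and were not treated as pairs.

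Members and lists were chosen with earlier results of these data known. Named were all members, up to 4 called probe sets per list with the smallest p between the inbreds, any called against the midparent, and the 3 most alike probe sets per member. All lists were matched on gene symbols and synonyms, not on descriptive gene names. The annotation, drawn up with Python 3.11.15, gave 1452 probe sets 1 gene, and RefSeq held 1377 of those, all 7 members included.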

Additional observations from a re-analysis of the deposited data

How the results depend on the processing

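The sign of the members' B73 minus Mo17 difference was kept in 133 of 133 alternative values, and that of hybrids minus midparent in 129 of 133. Many of these settings could hardly move the parental difference, such as leaving out a hybrid array. The members were also chosen with both differences known, so nothing is read from these counts. As deposited, the parental differences moved to -0.69 for gst5, 1.44 for gst11, 2.84 for gst12, 2.05 for gst13 (S1_at), 1.55 for gst28 and -0.86 for GST38. Signs turned for gst12 against the log2 midparent (0.36), and as deposited for gst28 against the midparent (-0.14, position -0.20) and for the reciprocal difference of gst11 (0.03) and GST38 (0.01), all without a call. Leaving out 1 array gave gst28 -0.04 to 0.07 against the midparent and -0.08 to 0.11 for its position, and reciprocal differences of -0.14 to 0.02 for gst11, -0.19 to 0.00 for gst13 (S1_x_at) and -0.22 to 0.07 for GST38. No setting called a member between the reciprocal hybrids. Over all probe sets that contrast had 6 calls as deposited, 2 with no filter, and 0 to 2 without 1 array.

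Other glutathione transferases called higher in B73 numbered 5 with no filter, a setting for which the share over all probe sets was not counted. Those lower numbered 0 as deposited and 1 to 2 without 1 array, and 1 differed from the log2 midparent. In the other lists, 8 were higher in B73 after quantile normalization. Against the midparent these lists had 2 calls as deposited, with quantile normalization or with no floor (log2(signal + 16)), 3 with a floor at the 40th percentile, 0 with no filter, 4 with the log2 midparent, and 1 to 2 without 1 array. The causes were not tested. With the replicate number as a block, the counts were unchanged: 0 reciprocal calls, 3 higher and 2 lower other glutathione transferases, and 5 higher, 3 lower and 1 midparent call in the other lists. Same-numbered arrays deviated together by a median correlation of 0.15 (-0.09 to 0.46), over 0.1 in 11 of 18 pairs, and 10 of 12 arrays correlated best with their own number. Signal near the floor limits gst13 on S1_x_at in B73 and the 20 dim family probe sets.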

Other observations

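The 20 glutathione transferase probe sets below the filter were also fitted with no filter, where 2 were called higher in B73 and 0 lower by limma, and 5 had an unadjusted p under 0.05. The shares over all 17621 probe sets of that fit were not counted, so nothing is read from these counts. gst30, the neighbour of GST38, had scaled signals of 36.3 to 46.1 in B73 and 0.564 to 1.46 in Mo17, with 22.0 to 35.5 in the hybrids. All 3 Mo17 arrays were below the floor, so B73 was at least 3.26-fold higher, taken against the floor of 12.2 (limma adjusted p = 7.02e-05), whereas GST38 was read lower in B73. With no spread left in Mo17, the gst30 p-value holds for the floored values only. gst9, the neighbour of gst13, had 31.6 to 35.9 in B73 and 2.65 to 12.7 in Mo17, with 8.72 to 21.8 in the hybrids, a log2 difference of 1.41 ± 0.22 after flooring, with 2 of the 3 Mo17 arrays at the floor (limma adjusted p = 0.00132). The gst13 probe set S1_at was likewise read higher in B73, and S1_x_at lower. gst7, the neighbour of gst28, was at or under 11.5 on all 12 arrays, below the floor. How these dim signals relate to those of their neighbours was not tested.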
